A study of Mus musculus with 4 samples.

Results

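The genes described here encode the soluble cargo of the chromaffin granule, the secretory vesicle of the adrenal medulla. They were taken by name from the deposited count table, as genes of known function in the granule, with earlier results of these data known. The 10 genes are the granins Chga, Chgb, Scg2, Scg3 and Scg5, the peptide precursors Npy, Penk and Vgf, and the prohormone convertases Pcsk1 and Pcsk2. All 10 were in the table of 54532 mouse genes, and all 10 passed the filter on low counts that left 16027 genes for testing.

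RNA was sequenced from the right adrenals of adult C57BL/6 males, taken 1 h after an intraperitoneal injection. The treated group of 5 mice received 10 µg of dexamethasone, a synthetic glucocorticoid, and the control group of 5 mice received phosphate-buffered saline (PBS), the vehicle. Within a group the glands of 2 mice made 1 library and those of 3 mice the other, so n = 2 libraries per group, and the labels do not tie pool sizes to replicate numbers. No transgene or deletion is named in the labels for either group, and each pool holds cortex and medulla together.

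Chromaffin cells store catecholamines in dense-core granules together with granins, acidic proteins that condense the granule contents and are themselves precursors of peptides. Prohormone convertases cut granins and neuropeptide precursors at pairs of basic residues inside the granule, and carboxypeptidase and amidating enzymes then trim the products. Splanchnic nerve input and cyclic AMP are well known to raise transcription of several of these genes in the medulla, partly through cAMP response elements close to the transcription start.

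The promoters of the 2 genes with the largest differences, Pcsk1 and Scg2, are shown beside those of Chgb and Chga, granins whose groups overlapped, because they allow the element to be compared. RefSeq windows of GRCm38.p6, from 250 bases before to 50 bases after the start, were found for 8 of the 10 genes; Penk and Vgf are named only. Both strands were searched for the full element TGACGTCA, which holds the shorter core TGACG on each strand. The full element was present in 3 of the 8 windows, in Pcsk1, Scg2 and Chgb, against 1.79% of all 32851 windows. Only exact matches to the full element were counted, so a near match such as that in Chga was not. The 30 bases round it, 5′ to 3′ on the gene's strand, are given with the full element in capitals, or the core alone in Chga.
Pcsk1 (chr13:75089768-75089797, plus strand): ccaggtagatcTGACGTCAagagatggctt
Scg2 (chr1:79440076-79440105, minus strand): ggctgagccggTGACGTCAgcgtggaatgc
Chgb (chr2:132781559-132781588, plus strand): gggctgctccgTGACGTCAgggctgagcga
Chga (chr12:102554885-102554914, plus strand): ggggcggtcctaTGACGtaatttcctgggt

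In the Pcsk1 window the full element began 78 bases before the start and a further core 50 bases before it. The full element began 68 bases before the RefSeq start in Scg2 and 72 bases before it in Chgb. The deposited genes begin further upstream, at chr1:79440120 for Scg2 (minus strand) and chr2:132781278 for Chgb, so both stretches lie inside them. The core stood 44 bases before the start in Chga. At least 1 core was found in 7 of the 8 windows, Npy being without one, against 20.8% of all windows. The glucocorticoid response element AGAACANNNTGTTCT was in none of the 8 windows and in 0.00913% of all windows. An exact match is so rare that its absence from 8 windows tells nothing about these genes. Bases outside the windows were not searched. One arm of the element, TGTTCT, was in none of the 8 and in 19.0% of all. The Pcsk1 window up to the base before the deposited gene start, 219 bases, is printed because Pcsk1 was the 1 gene of the 10 that passed the test, with the full element and the further core in capitals.
Pcsk1 (chr13:75089607-75089825, plus strand): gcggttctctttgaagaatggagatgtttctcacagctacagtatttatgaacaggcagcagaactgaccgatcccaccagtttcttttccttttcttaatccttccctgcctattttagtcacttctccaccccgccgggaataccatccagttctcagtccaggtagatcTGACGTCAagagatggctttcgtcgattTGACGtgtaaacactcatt

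**Figure D1:**
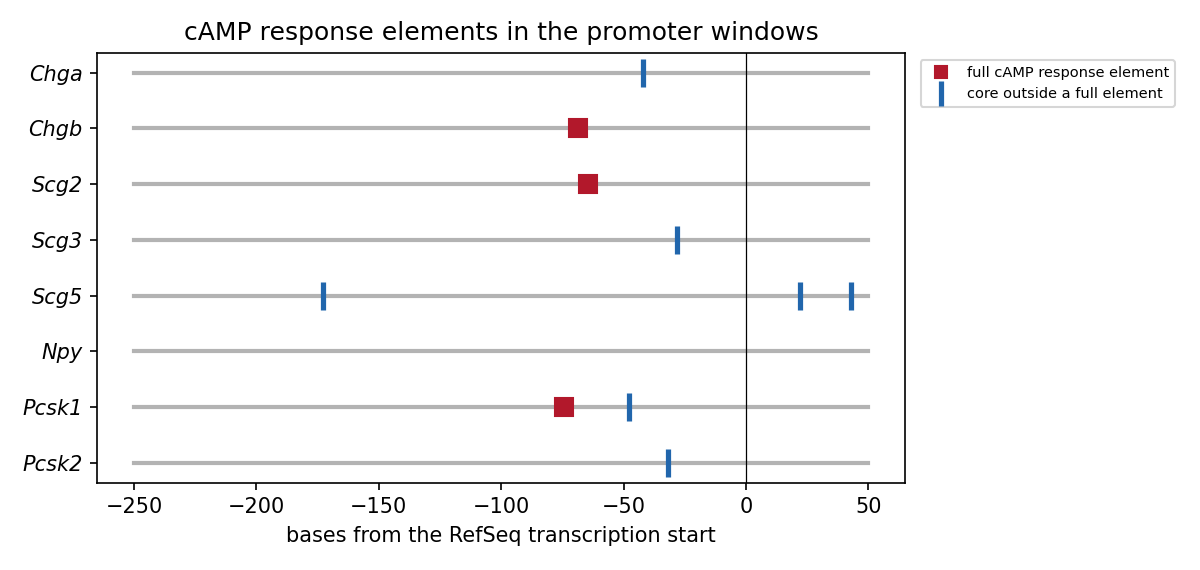
The 8 promoter windows are drawn as grey lines by distance in bases from the RefSeq start; red squares are full cAMP response elements and blue ticks cores outside one. Pcsk1, Scg2 and Chgb hold a full element between 78 and 61 bases before the start, and Npy holds neither form.

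The libraries held 21904510 to 26948588 counts assigned to genes. Values are CPM, read counts brought to the same total in every library and adjusted with TMM factors, which ran from 0.951 to 1.04. The gland was recognisable by its markers: 9 of 9 cortex markers and 14 of 14 chromaffin markers were tested, and none was at 0. The chromaffin markers, among them the catecholamine enzymes Th and Dbh, summed to 3078 and 2282 CPM in dexamethasone replicates 1 and 2, against 1882 and 2783 CPM in PBS replicates 1 and 2. The sums were thus high in 1 library of each group, dexamethasone replicate 1 and PBS replicate 2. Single markers did not all share that order: 5 of the 14, Th, Dbh, Ddc, Pnmt and Slc18a1, were above their own mean in both of these libraries, while 6 were below it in dexamethasone replicate 1 and 3 in PBS replicate 2. In whole glands, a smaller number of medullary cells and less RNA per cell cannot be told apart.

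Granule cargo transcripts were abundant. The 10 genes took 1.19% and 0.921% of all counts in dexamethasone replicates 1 and 2, against 0.763% and 1.10% in PBS replicates 1 and 2. On the scale of mean CPM per kilobase of listed gene length over the 4 libraries, Chgb stood at 1620 and ranked 17 among the 16027 genes, Chga at 1265 and ranked 21, and Scg2 at 615 and ranked 39. Npy, at 412 CPM per kilobase, ranked 68. The other members were far lower on that scale: 27.2 for Scg5, 23.0 for Penk, 14.0 for Scg3, 13.3 for Pcsk1, 9.87 for Vgf and 1.28 for Pcsk2. Library ranges of neighbours in this order overlapped, except between Chga and Scg2, Npy and Scg5, Penk and Scg3, and Vgf and Pcsk2.

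The comparison asked which of these transcripts differed 1 h after dexamethasone. Pcsk1 rose and was 2.00-fold the PBS level, and it was the 1 member called. Scg2 was 1.60-fold the PBS level and did not pass. The other 8 did not pass, with log2 fold changes between −0.36 for Penk and 0.29 for Scg3. In the quasi-likelihood test of edgeR, with p adjusted by Benjamini-Hochberg over all 16027 genes and a threshold of 0.05, 1 member was higher and 0 lower, beside 3.26% of all genes called higher and 1.37% called lower. At an unadjusted p under 0.05 the members were Pcsk1 and Scg2, with 0 lower, beside 14.3% of all genes higher and 13.1% lower. Long genes read higher in the dexamethasone libraries: across 14249 protein-coding genes, the slope of log2 CPM less the gene's own mean, per doubling of listed length, was 0.034 and 0.175 in dexamethasone replicates 1 and 2, against −0.056 and −0.154 in PBS replicates 1 and 2. The listed length is 5604 bases for Pcsk1 and 566 bases for Npy. With this trend removed Pcsk1 was at 0.92 (adjusted p = 0.045) and Npy at 0.29. Pcsk1 and Scg2 were both called higher by DESeq2, as were 6.45% of its genes, and with the length trend removed, as were 1.93% of all genes. Without PBS replicate 1 the count of members called lower was 3 (Npy, Vgf and Penk), beside 10.4% of the genes tested then. The median log2 fold change of the 10 was 0.02, beside 0.01 over all genes tested. With the length trend removed these medians were 0.23 and 0.009. Groups did not overlap, with dexamethasone higher, in 4 members, Pcsk1, Scg2, Scg3 and Pcsk2, a result that 30.8% of all genes showed; they did not overlap in the other direction in 1 member, Penk, as did 29.7% of all genes.

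**Figure D2:**
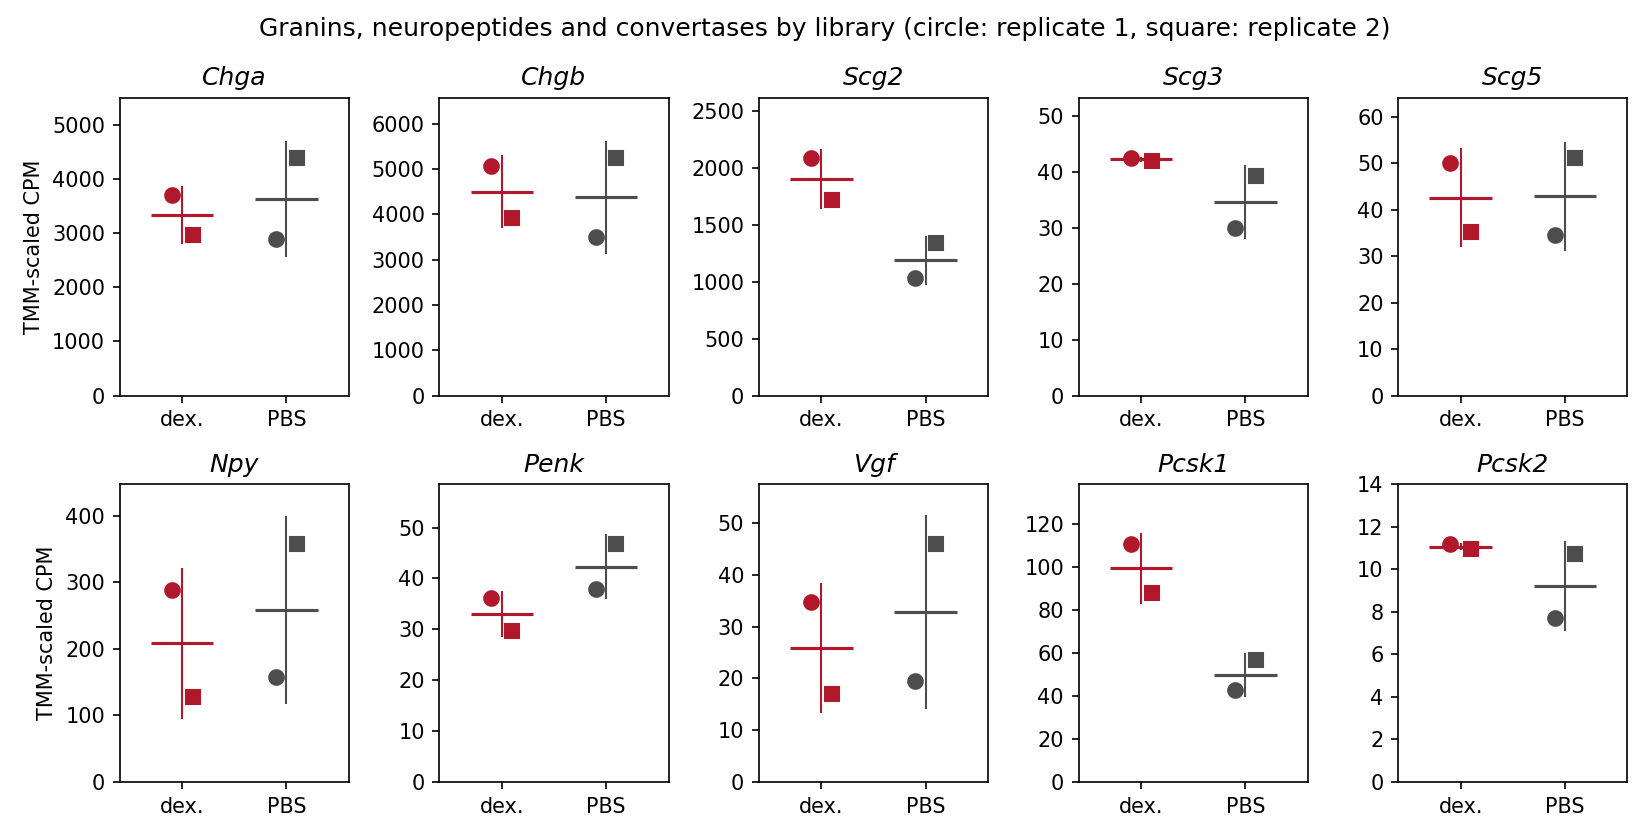
TMM-scaled CPM of each gene in dexamethasone (dex., red) and PBS (grey) libraries, each axis starting at 0; circles are replicate 1, squares replicate 2, and lines show the mean and SD (n = 2 per group). Pcsk1 stood at 111 and 87.8 CPM in the dexamethasone libraries, above 42.6 and 56.9 CPM in the PBS libraries, while Npy was high in 1 library of each group.

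Pcsk1 encodes the convertase PC1/3, which makes the first cuts in many precursors. Its gene lies at chr13:75089826-75134861 of GRCm38 (ENSMUSG00000021587). Pcsk1 was counted at 111 and 87.8 CPM in dexamethasone replicates 1 and 2, against 42.6 and 56.9 CPM in PBS replicates 1 and 2. Both dexamethasone libraries were above both PBS libraries. Its mean was 99.3 ± 16.3 CPM after dexamethasone and 49.7 ± 10.1 CPM after PBS (SD, n = 2 each). The log2 fold change was 1.00 ± 0.19 (SE, 95% interval 0.58 to 1.42, edgeR adjusted p = 0.0233). With each library left out in turn it was 0.79 to 1.21. Pcsk1 did not pass when libraries were scaled to chromaffin markers (0.92 ± 0.32 SE, edgeR adjusted p = 0.099), where the SE was larger. Nor did it pass with a replicate block (1.00, edgeR adjusted p = 0.0545).

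Pcsk2, the gene of the convertase PC2, which acts later and makes smaller peptides, was counted at 11.2 and 10.9 CPM in dexamethasone replicates 1 and 2, against 7.72 and 10.7 CPM in PBS replicates 1 and 2. The dexamethasone libraries were both above the PBS libraries, PBS replicate 2 only just below them. Its log2 fold change of 0.27 ± 0.21 (SE, 95% interval −0.21 to 0.75, edgeR adjusted p = 0.44) did not pass, and was 0.03 without PBS replicate 1. With the gene length trend removed it was 0.08, the listed length of Pcsk2 being 7910 bases. An antisense gene within it, Pcsk2os1, had 23 to 39 counts beside 205 to 301 of Pcsk2, and without stated strand use these reads cannot be told apart. The ratio of Pcsk1 to Pcsk2 counts, which does not depend on how libraries are scaled, was 9.89 and 8.02 in dexamethasone replicates 1 and 2, against 5.52 and 5.31 in PBS replicates 1 and 2.

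Scg5 encodes 7B2, the chaperone that PC2 needs to mature. Scg5 was counted at 50.1 and 35.1 CPM in dexamethasone replicates 1 and 2, against 34.6 and 51.2 CPM in PBS replicates 1 and 2. The groups overlapped fully, with the higher value of each group near 50 CPM. The log2 fold change was −0.01 ± 0.23 (SE, 95% interval −0.52 to 0.50). It was 0.29 without PBS replicate 2 and −0.29 without dexamethasone replicate 1.

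Among the large granins, Scg2 encodes secretogranin II, the precursor of secretoneurin (chr1:79434669-79440120). Scg2 was counted at 2090 and 1718 CPM in dexamethasone replicates 1 and 2, against 1036 and 1339 CPM in PBS replicates 1 and 2. The groups did not overlap. Its log2 fold change was 0.68 ± 0.18 (SE, unadjusted 95% interval 0.27 to 1.09, edgeR adjusted p = 0.0635). It passed without dexamethasone replicate 2 (0.82) or PBS replicate 2 (0.87), by DESeq2 (0.67, adjusted p = 0.0069) and with the trend on gene length removed (0.84, adjusted p = 0.0322). Over its 13 alternatives the adjusted p ran from 0.000116 to 0.211.

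Chga and Chgb, the chromogranins A and B, are major soluble proteins of the granule. Chga was counted at 3713 and 2957 CPM in dexamethasone replicates 1 and 2, against 2883 and 4396 CPM in PBS replicates 1 and 2. Chgb was counted at 5075 and 3927 CPM in dexamethasone replicates 1 and 2, against 3494 and 5256 CPM in PBS replicates 1 and 2. In both genes the PBS libraries enclosed the dexamethasone libraries. The log2 fold change was −0.13 ± 0.22 for Chga (SE, 95% interval −0.61 to 0.36) and 0.04 ± 0.22 for Chgb (−0.45 to 0.53), and neither passed. The sign turned with single libraries: Chga was at 0.20 without PBS replicate 2 and 0.03 without dexamethasone replicate 2, and Chgb at −0.24 without PBS replicate 1 and −0.16 without dexamethasone replicate 1.

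Scg3 encodes a granin that binds cholesterol-rich granule membrane and holds chromogranin A there. It was counted at 42.6 and 41.9 CPM in dexamethasone replicates 1 and 2, against 29.9 and 39.3 CPM in PBS replicates 1 and 2. The groups did not overlap, though PBS replicate 2 lay close to the dexamethasone libraries. The log2 fold change was 0.29 ± 0.17 (SE, 95% interval −0.09 to 0.67, edgeR adjusted p = 0.287), and it was 0.09 without PBS replicate 1.

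**Figure D3:**
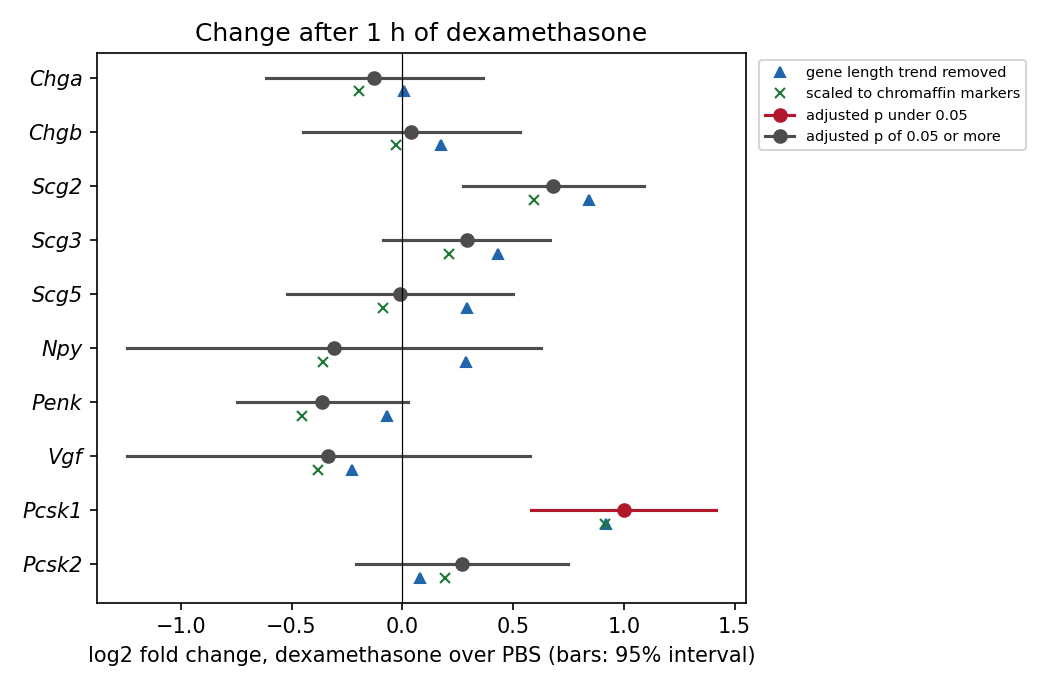
Log2 fold changes of the 10 genes, dexamethasone over PBS, with 95% intervals from edgeR (n = 2 libraries per group); triangles show the value with the gene length trend removed and crosses the value with libraries scaled to chromaffin markers. Pcsk1 is the 1 gene that passed; the interval of Scg2 (0.27 to 1.09) also lies above 0 before adjustment, and Chga, Npy, Scg5 and Chgb change sign under at least 1 of the 2 alternatives drawn.

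Ratios between members within a library cancel its scaling and, for genes read from the same cells, the share of those cells. Per read of Chga, Scg2 had 0.563 and 0.581 reads in dexamethasone replicates 1 and 2, against 0.359 and 0.305 in PBS replicates 1 and 2. Per 100 reads of Chga, Pcsk1 had 2.99 and 2.97 reads in dexamethasone replicates 1 and 2, against 1.48 and 1.29 in PBS replicates 1 and 2. The dexamethasone libraries lay close together in both ratios and apart from both PBS libraries. Chgb had 1.37 and 1.33 reads per read of Chga in dexamethasone replicates 1 and 2, against 1.21 and 1.20 in PBS replicates 1 and 2, a smaller shift of 0.16 on the log2 scale beside 0.79 for Scg2 and 1.11 for Pcsk1. Groups were also apart in the ratios to Chga of Scg3 and Pcsk2, higher after dexamethasone (0.405 and 0.387), and of Penk, lower (−0.257). Those of Scg5, Npy and Vgf overlapped. All these ratios share Chga as denominator, which was highest in PBS replicate 2. The share of all genes whose ratio to Chga keeps the groups apart was not computed. In CPM the groups were apart in 30.8% of all genes with dexamethasone higher and in 29.7% with it lower. The listed lengths of Chga, Chgb and Scg2 are alike at 2756, 2740 and 2515 bases, as is that of Scg3 at 2738 bases. Those of Pcsk1, Pcsk2 and Penk are 5604, 7910 and 1634 bases. Ratios between genes of unlike length keep the length trend. With this trend removed the log2 fold change was 0.08 for Pcsk2, −0.07 for Penk, 0.43 for Scg3 and 0.009 for Chga. With 2 libraries per group an exact permutation test of such a ratio cannot give a two-sided p below 0.333, so the ratios stand as descriptions.

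**Figure D4:**
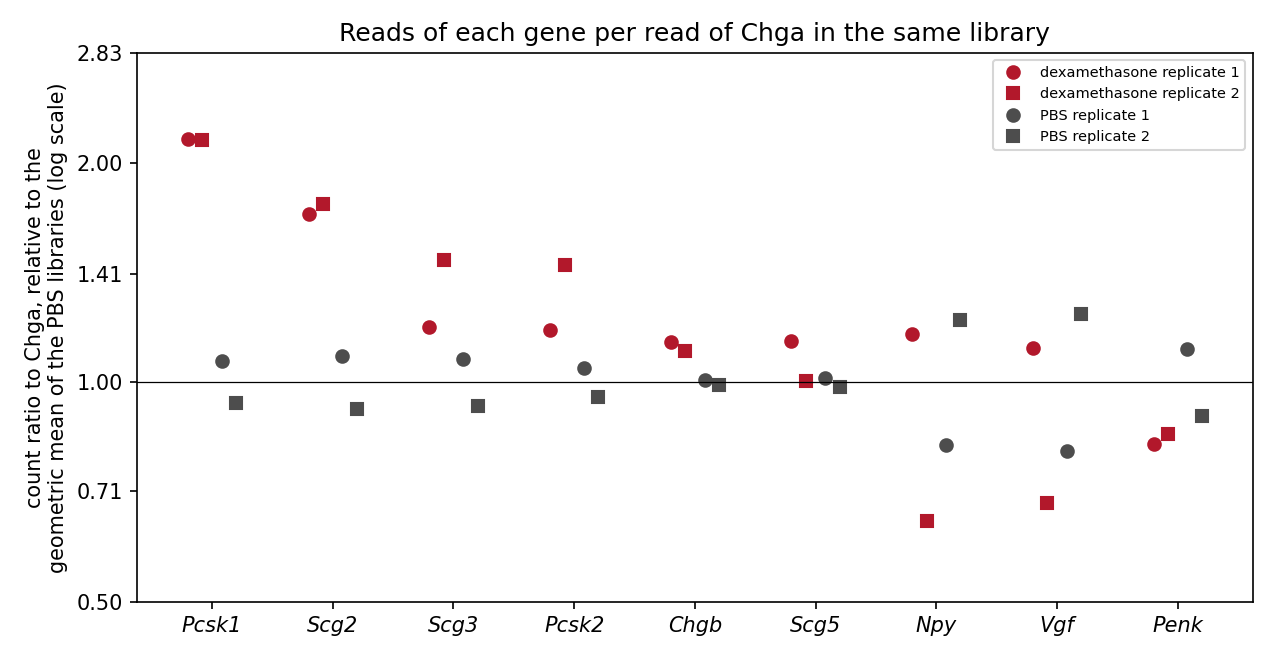
Counts of each gene per count of Chga in the same library, divided by the geometric mean of that ratio in the PBS libraries, on a log axis; red points are dexamethasone and grey points PBS, circles replicate 1 and squares replicate 2. Pcsk1 and Scg2 show the largest log2 differences (1.11 and 0.79). Groups are also apart, by less, in Scg3 (0.405), Pcsk2 (0.387) and Chgb (0.16), and in the other direction in Penk (−0.257). The share of all genes with such ratios apart was not computed. Npy and Vgf separate replicates within each group.

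Npy encodes neuropeptide Y, a vasoconstrictor peptide stored with catecholamines in chromaffin cells and in sympathetic nerves. It was counted at 289 and 127 CPM in dexamethasone replicates 1 and 2, against 158 and 358 CPM in PBS replicates 1 and 2. Vgf, whose product is a granin-like precursor induced by nerve growth factor, was counted at 34.8 and 17.0 CPM in dexamethasone replicates 1 and 2, against 19.5 and 46.0 CPM in PBS replicates 1 and 2. Both genes were high in dexamethasone replicate 1 and PBS replicate 2, and in both the PBS libraries were neither jointly above nor below the dexamethasone ones. The ratio of Npy to Vgf counts was 8.29 and 7.49 in dexamethasone replicates 1 and 2, against 8.08 and 7.78 in PBS replicates 1 and 2.

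The spread between replicates of a group was wider for this pair than for any other member. Npy differed 2.27-fold between the dexamethasone libraries and 2.26-fold between the PBS libraries, and Vgf 2.05-fold and 2.35-fold; for the other 8 members these folds were at most 1.43 and 1.52. The summed chromaffin markers, but only 5 of the 14 one by one, were high in the same libraries, and their part in this spread was not tested. Log2 fold changes were −0.31 ± 0.41 for Npy (SE, 95% interval −1.24 to 0.62) and −0.34 ± 0.40 for Vgf (−1.24 to 0.57), and neither passed. Single libraries set these values. Npy passed as lower when dexamethasone replicate 1 (−1.02) or PBS replicate 1 (−0.80) was left out, but was at 0.38 with PBS replicate 2 left out and at 0.16 with dexamethasone replicate 2 left out. Vgf passed as lower with PBS replicate 1 left out (−0.85), and was at 0.39 with PBS replicate 2 left out and at 0.09 with dexamethasone replicate 2 left out.

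Penk encodes proenkephalin, the precursor of the opioid enkephalins that chromaffin cells release with adrenaline. It was counted at 36.1 and 29.7 CPM in dexamethasone replicates 1 and 2, against 37.8 and 46.8 CPM in PBS replicates 1 and 2. The groups did not overlap, dexamethasone replicate 1 lying just below PBS replicate 1. The log2 fold change of −0.36 ± 0.17 (SE, 95% interval −0.75 to 0.02, edgeR adjusted p = 0.205) did not pass. It passed without PBS replicate 1 (−0.53), and it was −0.07 with the gene length trend removed.

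**Figure D5:**
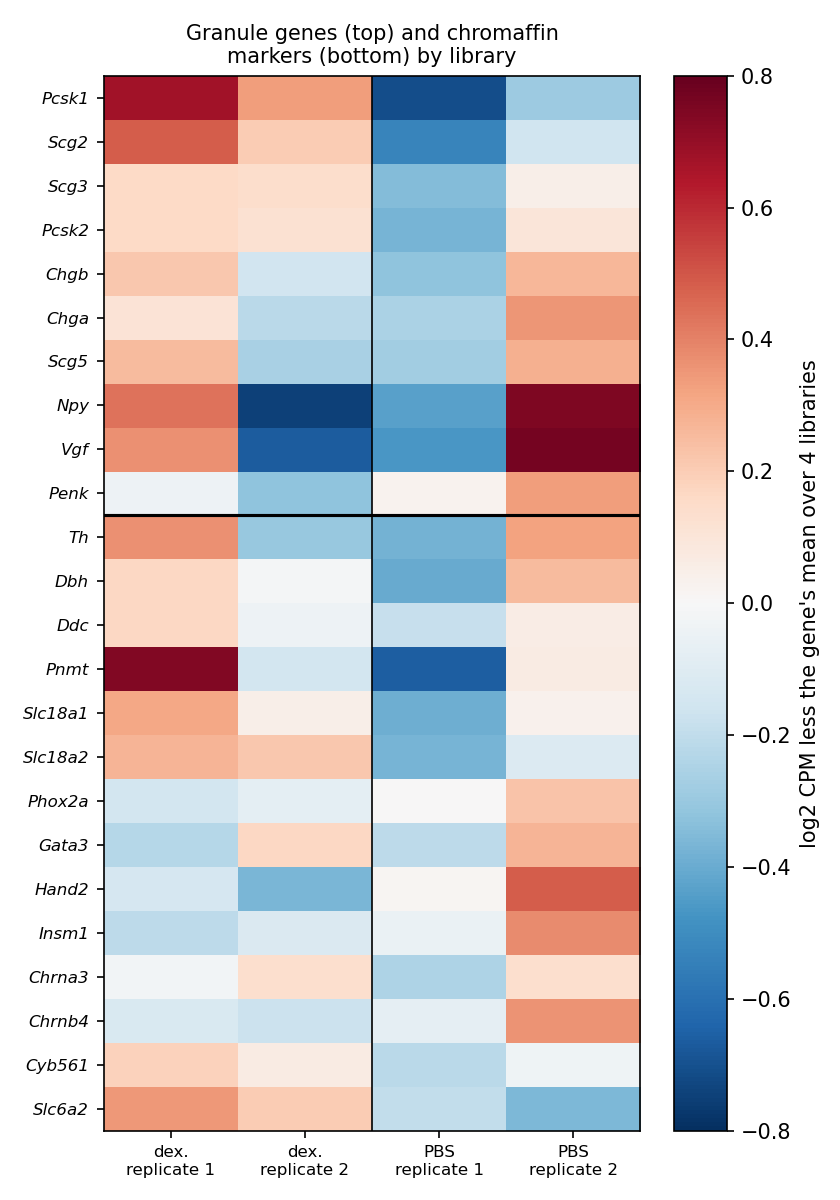
Log2 CPM of each gene less its mean over the 4 libraries, for the 10 granule genes (above the black line) and 14 chromaffin markers (below it), with dexamethasone (dex.) libraries left of PBS libraries. Pcsk1 and Scg2 are above their means in both dexamethasone libraries and below them in both PBS libraries, as are the markers Slc18a2, Cyb561 and Slc6a2. Npy, Vgf and Th are above their means in dexamethasone replicate 1 and PBS replicate 2. So are Chga, Chgb, Scg3, Scg5 and Pcsk2, and the markers Dbh, Ddc, Pnmt and Slc18a1.

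When libraries were scaled to 8 chromaffin markers that are no members (Th, Dbh, Ddc, Slc18a1, Slc18a2, Phox2a, Insm1 and Chrna3), Pcsk1 was at 0.92 and Scg2 at 0.60 on the log2 scale, and no member passed, beside 1.34% of all genes higher and 1.40% lower. The SE was then 0.32 for Pcsk1 and 0.25 for Scg2, against 0.19 and 0.18 with TMM factors. Scaling to these markers moved the median of all genes tested to −0.095, against 0.01 with TMM factors. None of the 14 chromaffin markers passed in the main fit. Their log2 fold changes ran from −0.51 for Hand2, a lineage transcription factor, to 0.62 for Pnmt, the enzyme that makes adrenaline, with a median of 0.11. Groups did not overlap in 4 of the 14 with dexamethasone higher and in 4 with it lower, beside 30.8% and 29.7% of all genes.

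Other genes of the peptide pathway were given by lists. Of 16 tested genes of peptide processing, 0 were higher and 0 lower, with a median log2 fold change of −0.09. They include Cpe, the carboxypeptidase that removes the basic residues the convertases leave, at 1848 and 1940 CPM in dexamethasone replicates 1 and 2, against 2045 and 2174 CPM in PBS replicates 1 and 2. The amidating enzyme gene Pam had 573 and 633 CPM in dexamethasone replicates 1 and 2, against 574 and 553 CPM in PBS replicates 1 and 2. The log2 fold change was −0.16 ± 0.14 for Cpe and 0.10 ± 0.14 for Pam (SE). Pcsk1n, whose product proSAAS inhibits PC1/3, had 178 and 123 CPM in dexamethasone replicates 1 and 2, against 143 and 228 CPM in PBS replicates 1 and 2. Its libraries stood in the same order as those of Npy. The constitutive convertase gene Furin was at 0.07 ± 0.20.

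Of 22 other peptide precursors 8 had enough counts to be tested, and 0 were higher and 0 lower (median −0.28). With the length trend removed the median of these 8 was 0.04. The best counted of them was Gal, the galanin gene, at 48.1 and 25.1 CPM in dexamethasone replicates 1 and 2, against 33.4 and 59.3 CPM in PBS replicates 1 and 2. Gal was high in dexamethasone replicate 1 and PBS replicate 2, as were Npy and Vgf. Of 4 tested receptors for the peptides none passed. The best counted, Npy2r, a receptor for neuropeptide Y, had 28.6 and 29.3 CPM in dexamethasone replicates 1 and 2, against 21.2 and 21.7 CPM in PBS replicates 1 and 2 (log2 fold change 0.43 ± 0.15 SE, edgeR adjusted p = 0.106).

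Of 12 tested genes of granule biogenesis and priming 2 rose and 0 fell, with a median of 0.08, beside 3.26% and 1.37% of all genes called. Groups did not overlap in 4 of the 12 with dexamethasone higher and in 4 with it lower, beside 30.8% and 29.7% of all genes. Ptprn2, which encodes a transmembrane protein of dense-core granules, had 56.3 and 53.5 CPM in dexamethasone replicates 1 and 2, against 20.5 and 26.4 CPM in PBS replicates 1 and 2. Cadps, the gene of a protein that primes dense-core granules for release, had 23.2 and 21.6 CPM in dexamethasone replicates 1 and 2, against 9.04 and 8.27 CPM in PBS replicates 1 and 2. In both genes the groups were far apart and replicates close. The log2 fold changes were 1.23 ± 0.17 for Ptprn2 and 1.37 ± 0.17 for Cadps (SE, edgeR adjusted p = 0.00778 and 0.00722). Their listed lengths are 8602 and 15054 bases. Both passed in all 13 alternatives, at 1.02 and 1.00 with the length trend removed and at 1.15 and 1.26 when scaled to chromaffin markers. The related granule protein gene Ptprn, at 140 and 133 CPM in dexamethasone replicates 1 and 2 against 97.7 and 142 CPM in PBS replicates 1 and 2, did not pass (0.19 ± 0.18 SE).

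The genes whose library pattern was closest to the mean of the 10 members were found among 9935 genes with a mean of at least 10 CPM, by the root mean square difference in log2 CPM, each gene less its own mean, over the 4 libraries. They were Dlk1 (0.031), Shc2 (0.0547), Ctxn3 (0.0553), Nap1l5 (0.0777) and Zcchc18 (0.0783). Dlk1 had 895 and 683 CPM in dexamethasone replicates 1 and 2, against 556 and 862 CPM in PBS replicates 1 and 2. With the same measure, and chosen after the values of Npy were seen, the genes closest to Npy were the metallothionein gene Mt1 (0.0441), Vgf (0.0565), Fndc4 (0.115), the clock gene Arntl (0.12) and Gal (0.154). Mt1 had 198 and 89.9 CPM in dexamethasone replicates 1 and 2, against 103 and 239 CPM in PBS replicates 1 and 2.

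Markers of other cells differed between groups in places, and their part in the values above was not tested. Over all genes 3.26% were called higher and 1.37% lower. Of 9 cortex markers 2 passed as lower, Nr5a1 and Scarb1. In all 9 both dexamethasone libraries were below both PBS libraries, as in 29.7% of all genes, and the median log2 fold change was −0.56. The list summed to 48183 and 44686 CPM in dexamethasone replicates 1 and 2, against 64268 and 66777 CPM in PBS replicates 1 and 2. Of 6 neuron markers 1 rose, Elavl4, which was at 5.06 and 4.76 CPM in dexamethasone replicates 1 and 2, against 1.96 and 2.40 CPM in PBS replicates 1 and 2. Of 5 macrophage markers 2 rose, Mrc1 and Cd163. Of 5 red blood cell markers 3 passed as lower, namely Hbb-bs, Hba-a2 and Hba-a1, haemoglobin genes with near-identical copies. In all 5 both dexamethasone libraries were below both PBS libraries, as in 29.7% of all genes. Of 5 capsule and fibroblast markers 1 fell, Rspo3. Of 7 Schwann and sustentacular, 5 endothelial and 5 adipocyte markers none passed. With the length trend removed 0 neuron, 1 macrophage, 0 red blood cell and 0 capsule markers passed.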

How the data were processed

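The deposited table holds raw counts of reads for each gene, which the authors did not normalize, with a listed gene length whose origin is not stated. The submitters' processing notes name CASAVA 1.8, STAR 2.5, HTSeq 0.6.1 and the mm10 (GRCm38) build, with no role or order; the strand setting is not given in the sources used here. Column initials were read as dexamethasone and saline (PBS), and their digit as the replicate.

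Genes were kept with filterByExpr (16027 of 27040 with at least 1 count), scaled with TMM and tested with edgeR 4.0.16 (glmQLFit, glmQLFTest) in R 4.3.3 by group alone (2 residual degrees of freedom), with p-values adjusted over all genes tested. SE is the log2 fold change over the root of its F statistic, intervals use the fit's t distribution, and log2 CPM a prior count of 2. Labels name pools of separate mice as replicates, so p-values measure the spread between pools. Libraries of a group differed 2.27-fold and 2.26-fold in Npy alone, far beyond counting noise, so none was merged. Alternatives used limma 3.58.1 (voom) and DESeq2 1.42.0. All members are named, and of 14 other lists every gene that passed plus at most 4 of the best counted; Pcsk1n, Hand2 and the smaller chromaffin markers were named after their values were seen. One chromaffin marker is not reported here and was left out of its list and of the scaling set. Members and lists were chosen with earlier results of these data known.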

Additional observations from a re-analysis of the deposited data

How the results depend on the processing

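Results were recomputed under 13 alternatives. Pcsk1 stayed higher in all 13 and passed in 11; Scg2 stayed higher in all 13 and passed in 6. Members called higher numbered 2 by DESeq2, with library totals, with no filter and with the length trend removed, 0 when scaled to chromaffin markers, and 1 to 2 with a library left out; members called lower numbered 0 to 3 with a library left out. Over all genes, higher and lower calls were 913 and 868 by DESeq2, 1384 and 1329 with no filter, 310 and 134 with the length trend removed, 893 higher with library totals, and 337 to 1595 higher and 147 to 1747 lower with a library left out. Where a left-out library leaves a group with 1, that library is assumed to vary like the other group.

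No pairing of same-numbered libraries is stated, and the correlation of their deviations across genes was −0.03. With 2 libraries per group this correlation cannot settle whether they are paired. With the replicate block 244 genes were higher and 89 lower, and 0 members passed, Pcsk1 being at 1.00 (adjusted p = 0.0545); with the block and the length trend removed, 267 and 125. Signs turned as follows. With the length trend removed Chga was at 0.009, Scg5 at 0.29 and Npy at 0.29, and with the block as well at 0.03, 0.30 and 0.30. Scg5 was at 0.09 with library totals and 0.004 by limma-voom, and Chgb at −0.03 scaled to chromaffin markers. With a library left out Chga ran from −0.42 to 0.20, Chgb from −0.24 to 0.35, Scg5 from −0.29 to 0.29, Npy from −1.02 to 0.38 and Vgf from −0.94 to 0.39. The cause was not tested. Each member had 205 or more counts in every library.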
